A study of Rattus norvegicus with 18 samples.

Results

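Cilium and axoneme genes were followed in the hippocampus of 3 groups of selectively bred rats. The genes were picked by a rule on symbols, set with earlier results of these data known. It took every measured gene whose symbol starts with Dnah, Dnai, Dnaaf, Cfap, Rsph, Tekt, Ift, Bbs or Ttc30, plus Foxj1. This rule found 52 of the 20909 measured genes. Of these, 25 belong to the motile axoneme (12 Dnah, 2 Dnai, 6 Rsph and 5 Tekt genes), 3 are dynein arm assembly factors (Dnaaf), 23 belong to ciliary transport (13 Ift, 8 Bbs and 2 Ttc30 genes), and the last is Foxj1. No measured gene carries a Cfap symbol, since the annotation behind the values uses older names for those genes, for instance Wdr66 for Cfap251. The mean log2 value over the 18 rats was 0 or higher for all 52 members.

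The whole hippocampus of 18 adult male rats was sequenced, 6 rats per group and 1 library per rat. All 18 rats are labelled breeding generation 37. The bred High Responder (bHR) and bred Low Responder (bLR) lines were killed at P160 to P167 (days after birth). These lines had scored 2079 to 2501 and 20 to 44 for locomotion in a new environment. The bred Intermediate Responder (bIR) rats came from crosses of bHR with bLR rats, scored 323 to 886 and were killed at P126 to P134, so cross and age cannot be told apart in any comparison with them. The labels name no drug and no engineered allele, and all rats had been tested for behaviour. Rats of a line share its breeding history, so a difference between lines is one between breeding populations. Values are log2 of FPM (fragments scaled to sequencing depth), levels below are given as FPM ± SD over 6 rats, and tests are limma's moderated test with Benjamini-Hochberg adjustment over all 20909 genes unless a p is called unadjusted.

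A motile cilium beats with a ring of microtubule doublets that carries dynein arms, radial spokes that pass signals inward, and tektins inside the doublet walls. Such cilia stand in tufts on ependymal cells, which line the ventricle beside the hippocampus. Epithelial cells of the choroid plexus carry tufts of cilia too, though these are not taken here as motile. Neurons and astrocytes carry a solitary primary cilium without dynein arms. All cilia depend on intraflagellar transport (IFT), whose IFT-B complex serves mainly outward and whose IFT-A complex mainly return travel. They also depend on the BBSome, a coat that carries membrane receptors. Foxj1 is the transcription factor that switches on the motile programme, and RFX factors bind a palindrome, the X-box, in front of many genes of both kinds.

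Because the X-box is the sequence feature best known to join motile and transport genes, the promoters were read for it. RefSeq promoters (assembly GRCr8, 250 bases before to 50 after each annotated start) were found for 41 of the 52 members. The full box, GTNNCC and GGNNAC with 2 bases between them, which reads alike on both strands, was present in 5 of the 41 (12.2%), against 1.83% of all 33469 promoters in the table. That table was not limited to measured genes, as the members are, so here and for the other motifs the shares rest on unlike sets. The holders of the full box are the inner arm heavy chains Dnah2 and Dnah12, the radial spoke gene Rsph9, the assembly factor Dnaaf2 and the IFT-A gene Ift140. The stretches around the 3 boxes that lie fully before the start are shown 5′ to 3′ on the gene's strand, with the box in capitals.
Dnah2, chr10:54766038-54766091, minus strand: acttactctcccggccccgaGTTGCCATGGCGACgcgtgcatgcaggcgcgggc
Dnah12, chr16:1944670-1944723, plus strand: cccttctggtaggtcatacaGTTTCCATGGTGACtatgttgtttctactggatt
Dnaaf2, chr6:93406378-93406431, minus strand: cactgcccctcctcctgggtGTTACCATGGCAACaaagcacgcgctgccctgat
Counting the annotated start base as 0, these boxes begin at -45, -62 and -88. In the other two holders the box reaches into the transcribed part, as GTCTCCATGGAGAC from -4 in Rsph9 and GTCGCCCAGGGAAC from 3 in Ift140. All 3 upstream boxes share the central CCATGG, as does the box of Rsph9. The search pattern itself fixed the CC and GG of this centre.

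The same arms with 3 bases between them were searched as well, and this form was found in 0 of the 41 member promoters and 0.618% of all. A single arm of the box, GTTGCC on either strand, was present in 15 of 41 members (36.6%), 7 of 21 motile (33.3%) and 7 of 18 transport promoters (38.9%), against 12.2% of all promoters. It overlaps the full box in Dnah2 and Dnaaf2. The forkhead core GTAAACA, on either strand, was found in 1 of 41 (2.44%), against 3.78% of all. The arm is shown for 3 genes that return below, Ift81 and Dnai2 for their values and Ift88 as an IFT-B partner whose levels hardly differ, with the arm in capitals.
Ift81, chr12:39618596-39618623, plus strand: gtgacatcactgcatGGCAACcGTTGCC
Ift88, chr15:35688938-35688973, plus strand: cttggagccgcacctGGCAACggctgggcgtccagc
Dnai2, chr10:100258952-100258987, plus strand: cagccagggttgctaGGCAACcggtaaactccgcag
In Ift88 and Dnai2 the arm lies on the strand opposite to the gene and begins at -34 and -55. Ift81 holds 2 arms, one on the opposite strand from -11 and one on the gene's strand from -4. Such matches describe letters and are not binding sites. The values were made on Rnor_6.0, and the start sites here are those of GRCr8.

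Across the 52 members the bHR and bLR lines differed little, and mostly in the same direction. The mean was higher in bHR than in bLR for 41 of 52 members, where 49.8% of the genes with a mean log2 of at least 0 were higher in bHR. The median log2 difference over the members was 0.10. Only Ttc30a1, an IFT-B gene, passed the adjusted p threshold of 0.05, as did 93 of all 20909 genes (0.445%, with 0.191% higher in bHR). At an unadjusted p under 0.05, 5 members were higher and 1 lower in bHR, 6 of 52 in all, against 4.21% of all genes higher, 5.16% lower and 9.36% in all. The 6 bHR rats did not overlap the 6 bLR rats for 3 members, with Ttc30a1 and Ift81 higher and Dnaaf3 lower in bHR, against 0.407% of all genes higher, 0.502% lower and 0.909% in all. In whole tissue, fewer cells of a type and less RNA per cell cannot be told apart.

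**Figure D1:**
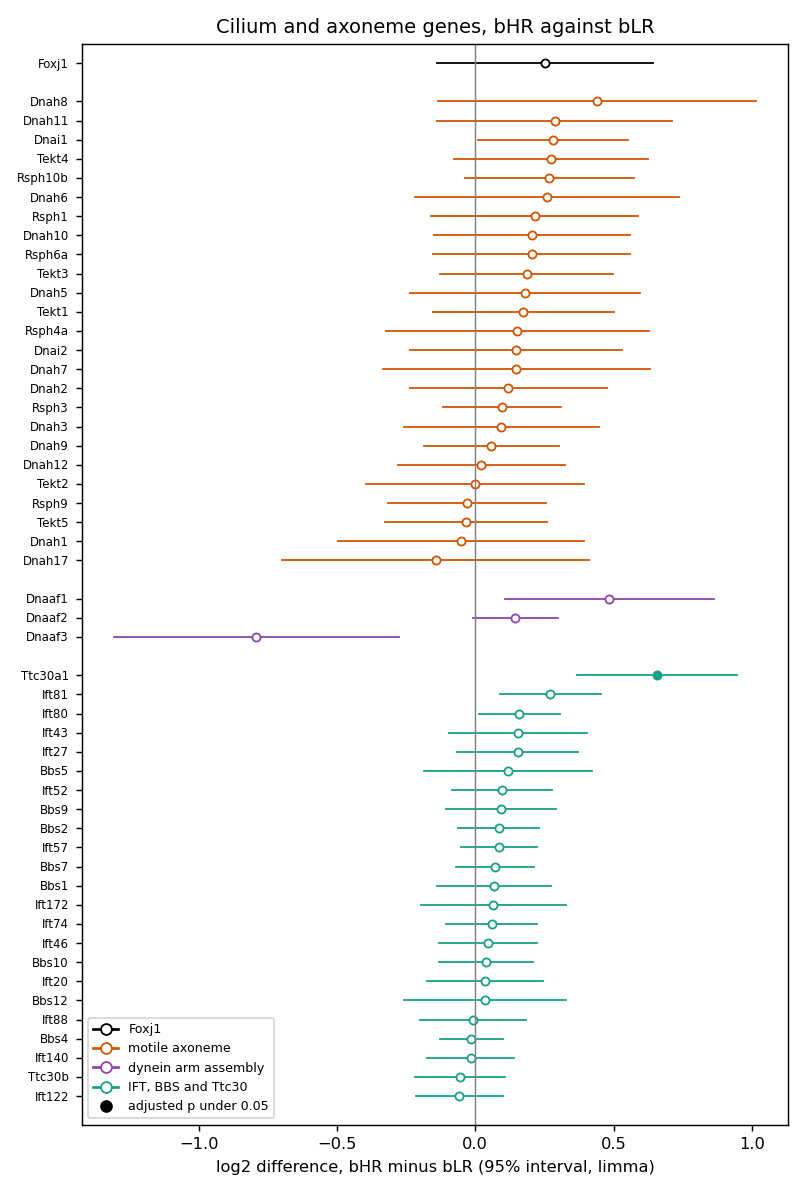
Fitted log2 difference, bHR minus bLR, of each of the 52 members with its 95% interval from limma (n = 6 rats a line), ordered within classes; the filled point passed the adjusted p threshold. Most points lie right of 0 with intervals that cross it, Ttc30a1 lies farthest to the right at 0.66 and Dnaaf3 farthest to the left at -0.79.

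Against bIR the members split in a similar way. For 40 of 52 members the mean was higher in bHR than in bIR, where 48.5% of genes with a mean log2 of at least 0 were. None passed the adjusted threshold (2 of all genes did, 0.00957%) and 6 had an unadjusted p under 0.05, against 5.81% of all genes. Between bLR and bIR, 25 of 52 were higher in bLR, where 50.3% of genes with such a mean were, 0 were called, as over all genes (0%), and 2 had an unadjusted p under 0.05, against 7.29% of all genes. With voom weights in limma the counts of members called against bIR were also 0. These comparisons share their groups and are not independent. Taking the 3 means together, the highest lay in bHR for 34 members, in bIR for 10 and in bLR for 8, and the bIR mean lay between the parental lines for 19 of 52.

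Foxj1 varied more within the bIR rats than between the lines. It lay at 22.7 ± 4.46 FPM in bHR (17.9 to 28.4), 27.3 ± 10.5 in bIR and 19.0 ± 3.24 in bLR (16 to 22.5). In bIR the rats IR_213 and IR_261 reached 39.7 and 41.2 FPM, and the other 4 lay between 18.1 and 24.9, inside the bHR range. The log2 difference between bHR and bLR was 0.25 (95% interval -0.14 to 0.64, adjusted p = 0.745), and that between bLR and bIR was -0.46 (unadjusted p = 0.0236, adjusted p = 0.635). The order of the means was bIR, bHR, bLR, and no neighbours in it differed beyond their spread.

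**Figure D2:**
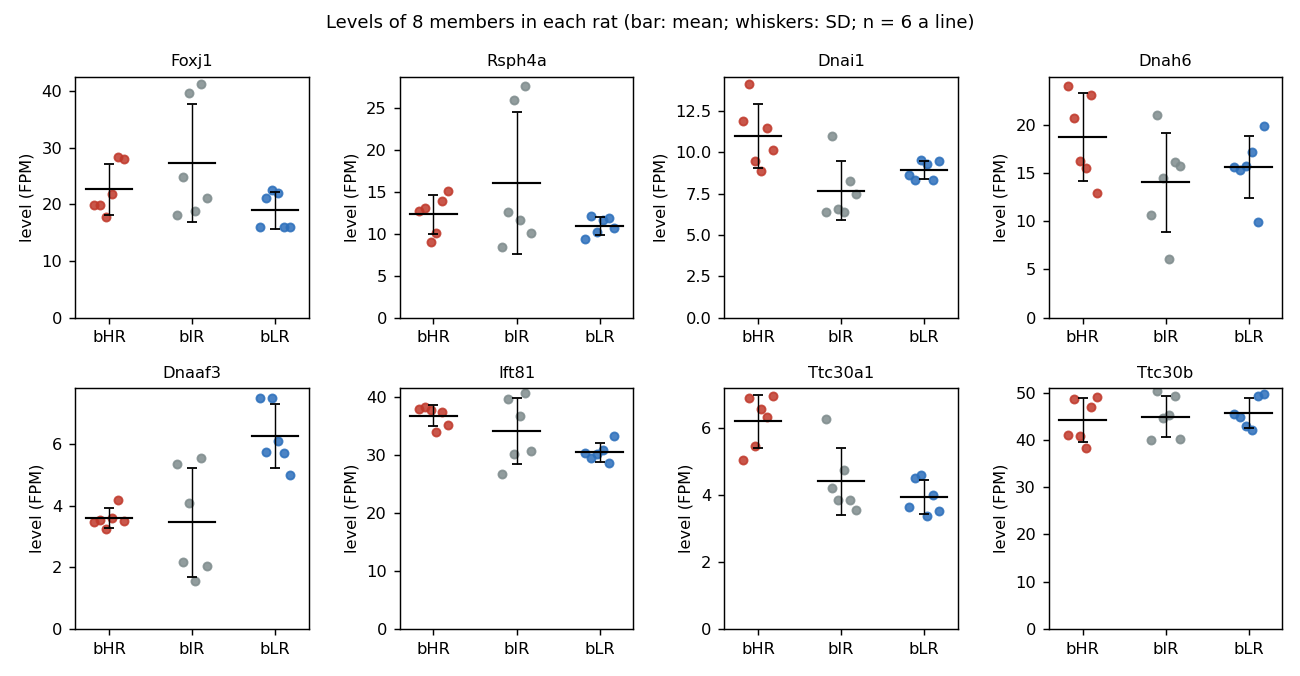
Level in FPM of 8 members in each of the 18 rats (points), with the mean (bar) and SD (whiskers) of the 6 rats of each line. Foxj1 and Rsph4a share the same pair of high bIR rats, bHR lies above bLR without overlap for Ift81 and Ttc30a1, and below it for Dnaaf3, whose bIR rats spread from 1.56 to 5.55 FPM; the near-identical Ttc30b shows no such step.

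Among the motile axoneme genes none passed the threshold in any comparison, and the mean was higher in bHR than in bLR for 20 of 25. Their median log2 difference was 0.15 (range -0.14 to 0.44, smallest adjusted p 0.513). Against bIR the median was 0.18, with 21 of 25 higher in bHR, and between bLR and bIR it was 0.04. Without HR_34 the bHR minus bLR median was 0.10, with 16 of 25 higher in bHR. Without HR_10, HR_34 or IR_248 the bHR minus bIR median was 0.10, 0.08 or 0.05, with 20, 19 and 20 of 25 higher. Over the alternatives the bLR minus bIR median lay between -0.05 (without IR_248) and 0.09 (without LR_48). The highest of the 3 means lay in bHR for 18 of 25 and the lowest in bIR for 15 of 25.

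The outer arm heavy chains Dnah5, Dnah8, Dnah9, Dnah11 and Dnah17 are the large motors that set beat frequency. Of these, 4 of 5 had a higher mean in bHR than in bLR. Dnah8 had the widest difference of the motile genes, with 3.68 ± 1.61 FPM in bHR (1.81 to 6.04) and 2.55 ± 0.694 in bLR (1.78 to 3.55), a log2 difference of 0.44 (unadjusted p = 0.125). The bHR rats HR_2 and HR_34 lay at 2.00 and 1.81 FPM, among the lower bLR rats, and the within-line SD of 0.53 log2 units was the largest of the motile genes. Dnah11, which sits near the ciliary base, lay at 10.5 ± 3.03 FPM in bHR and 8.37 ± 1.14 in bLR, also with overlap. Dnah17, known mainly from sperm tails, had the lower mean in bHR, at 1.80 ± 0.424 and 2.03 ± 0.670 FPM.

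The inner arm heavy chains shape the bend of the beat. All 7 (Dnah1, Dnah2, Dnah3, Dnah6, Dnah7, Dnah10 and Dnah12) had their mean in bHR above that in bIR, as had all 5 outer arm heavy chains. Over the alternative settings Dnah17 kept this sign in 24 of 28, and Dnah2 and Dnah7 each in 28 of 29. Dnah6 lay at 18.7 ± 4.52 in bHR, 14 ± 5.09 in bIR and 15.6 ± 3.24 FPM in bLR. The bHR minus bIR difference was 0.48 for Dnah6 (unadjusted p = 0.048) and 0.38 for Dnah10 (unadjusted p = 0.038), neither of which passed adjustment. The low end of Dnah6 in bIR was IR_248 at 6.10 FPM, and IR_158 stood at 21 FPM. Dnah12, the X-box gene with the most reads of the heavy chains, was nearly level at 23.9 ± 6.12, 20.8 ± 3.80 and 23.1 ± 2.58 FPM in bHR, bIR and bLR.

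The intermediate chain Dnai1 anchors the outer arm, and its loss is a classic cause of ciliary disease. It lay at 11 ± 1.93 FPM in bHR (8.84 to 14.1), 7.69 ± 1.79 in bIR (6.40 to 11) and 8.94 ± 0.563 in bLR (8.35 to 9.55). In bIR, 5 of 6 rats were below every bHR rat, and IR_158 at 11 FPM was the exception. The bHR minus bIR difference was 0.53 (95% interval 0.25 to 0.80, unadjusted p = 0.000603), the smallest p of any member in that comparison, yet the adjusted p was 0.45. The bHR minus bLR difference was 0.28 (unadjusted p = 0.0424, adjusted p = 0.513). Its partner Dnai2 was at 2.97 ± 0.698, 2.61 ± 0.620 and 2.67 ± 0.514 FPM, with all 3 groups overlapping.

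The radial spoke genes were divided in the comparison with bIR. Of the 6, 5 had a higher mean in bHR than in bLR (median 0.18), but only 3 of 6 were higher in bHR than in bIR (median 0.02). Rsph4a, a spoke head gene, lay at 12.3 ± 2.30 in bHR, 16 ± 8.46 in bIR and 11 ± 1.09 FPM in bLR. The bIR mean came from IR_213 and IR_261 at 25.9 and 27.7 FPM, the same rats that stood high in Foxj1, while the other 16 rats lay between 8.46 and 15.1. Rsph10b lay at 23.9 ± 2.82, 23.7 ± 6.92 and 19.9 ± 2.56 FPM (bHR minus bLR 0.27, adjusted p = 0.609), and Rsph1 at 9.98 ± 2.03, 10.5 ± 3.22 and 8.48 ± 0.819. Rsph3 had the smallest within-line SD of the motile genes, 0.15 log2 units, with 6.94 ± 0.466, 6.57 ± 0.849 and 6.51 ± 0.748 FPM. Rsph6a, a spoke gene best known from sperm, was at 2.50 ± 0.326, 2.16 ± 0.357 and 2.21 ± 0.542 FPM.

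Of the 5 tektins, 3 had a higher mean in bHR than in bLR and none was called. Tekt4 lay at 4.6 ± 1.34 FPM in bHR and 3.70 ± 0.358 in bLR (difference 0.27, unadjusted p = 0.118). Tekt3 lay at 3.96 ± 0.795 in bHR and 3.11 ± 0.543 in bIR (difference 0.34, unadjusted p = 0.0336, adjusted p = 0.842). Tekt1 was at 14 ± 3.31 in bHR, 13.8 ± 3.48 in bIR and 12.2 ± 1.12 FPM in bLR. For all 3 tektins the bHR rats overlapped those of the other groups.

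The assembly factors, which fold dynein arms in the cytoplasm before they enter the cilium, had differences of opposite sign. Dnaaf1 lay at 4.89 ± 1.31 FPM in bHR (3.88 to 7.08), 3.90 ± 0.976 in bIR and 3.42 ± 0.426 in bLR (2.97 to 4.09), a bHR minus bLR difference of 0.49 (95% interval 0.11 to 0.86, unadjusted p = 0.0143, adjusted p = 0.359). Dnaaf2 lay at 15.9 ± 1.49, 14.5 ± 0.768 and 14.3 ± 0.709 FPM, a difference of 0.14. Dnaaf3 was lower in bHR, at 3.60 ± 0.318 FPM (3.25 to 4.20), than in bLR, at 6.27 ± 1.03 (5.00 to 7.52). No bHR rat reached the lowest bLR rat. The difference was -0.79 (95% interval -1.31 to -0.27, unadjusted p = 0.00441, adjusted p = 0.235), and with only the 12 rats of these lines in the fit the adjusted p was 0.00647. Over the 29 alternative settings the adjusted p of Dnaaf3 ranged from 0.00647 to 0.466, and it passed the threshold in that setting alone. These values rest on 60 to 377 reads per library.

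The bIR rats fell into a low and a high set for Dnaaf3. Higher values, 5.35, 4.09 and 5.55 FPM, came from IR_149, IR_213 and IR_261, and lower ones from IR_158, IR_248 and IR_293, at 2.17, 1.56 and 2.05, below every bHR rat. This spread carried into the shared error of the fit and into the bLR minus bIR difference of 1.01 (unadjusted p = 0.00053, adjusted p = 0.326). Ordered on GRCr8 among measured genes, Dnaaf3 lies between Syt5 and Tnni3, with Tmem86b and Ptprh beyond Syt5 and Tnnt1 and Ppp1r12c beyond Tnni3. Of these 6 neighbours, Tnnt1 (slow skeletal troponin T) and Syt5 (a synaptotagmin of secretory vesicles) passed the threshold between bHR and bLR. Both were picked out after their values were seen.

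Tnnt1 lay at 1.14 ± 0.257 FPM in bHR and 11.9 ± 6.67 in bLR, a difference of -3.24 (adjusted p = 0.00316). In bIR it stood at 6.38, 7.14 and 10.8 FPM in IR_149, IR_213 and IR_261 and at 1.00, 2.10 and 0.692 in IR_158, IR_248 and IR_293, the same division of the 6 rats as for Dnaaf3. Syt5 lay at 99.7 ± 7.75 in bHR, 110 ± 10.6 in bIR and 134 ± 17.8 FPM in bLR (difference -0.42, adjusted p = 0.0260). Next to Dnaaf3 on the other side, Tnni3 had means of 0.371, 0.501 and 0.733 FPM and a difference of -1.11 (adjusted p = 0.470). Ppp1r12c had a difference of -0.14. The gene order places Tnni3 between Dnaaf3 and Tnnt1. The library kit is stranded but the strand setting of the counting is not given in the sources used here, so reads at overlapping ends of neighbours cannot be assigned with certainty. Among the 3 measured neighbours on each side of the 50 members that could be placed, 297 distinct genes in all, 2 were called (0.673%, against 0.445% of all genes), and both lie beside Dnaaf3.

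**Figure D3:**
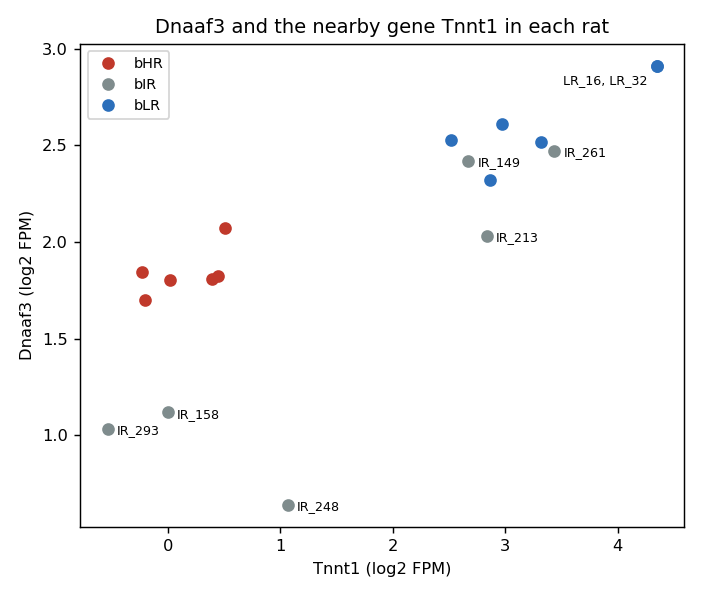
Dnaaf3 against its near neighbour Tnnt1 in each of the 18 rats, both in log2 FPM, coloured by group, with the bIR rats labelled by name. The bHR rats lie at low Tnnt1, the bLR rats at high Tnnt1 and high Dnaaf3 (LR_16 and LR_32 coincide), and the bIR rats fall into 2 sets of 3 apart from each other.

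The transport genes showed smaller differences and a smaller spread between rats than the motile genes, described here without a test. For 18 of 23 the mean was higher in bHR than in bLR, with a median log2 difference of 0.07 (range -0.06 to 0.66). Against bIR the median was 0.05, with 16 of 23 higher in bHR, and between bLR and bIR it was -0.01, with 9 of 23 higher in bLR. Without the 4 libraries rich in choroid plexus RNA described below these medians were 0.11 and 0.07, with 17 of 23 higher in bHR and 13 of 23 higher in bLR. The bHR minus bIR median was 0.03 without HR_2 or IR_293, 0.07 without IR_248 and 0.08 without IR_261 or with the choroid plexus level as a covariate, and the bLR minus bIR median lay on both sides of 0 over the alternatives. The highest mean lay in bHR for 14 of 23 and the lowest in bLR for 13 of 23. The median within-line SD was 0.152 log2 units for transport genes and 0.324 for motile genes, against 0.190 for all genes with a mean log2 of at least 0.

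Ttc30a1 encodes a tetratricopeptide protein of the IFT-B core, also named IFT70. Its levels in the bHR rats were 5.03, 5.45, 6.31, 6.56, 6.90 and 6.95 FPM. The bLR rats lay between 3.37 and 4.59 FPM, with a median of 3.82. The bIR rats stood at 3.53, 3.84, 3.85, 4.20, 4.73 and 6.27 FPM, so that only IR_149 reached the bHR range. The means were 6.2 ± 0.791 in bHR, 4.40 ± 1.00 in bIR and 3.93 ± 0.519 in bLR. The bHR minus bLR difference was 0.66 (95% interval 0.37 to 0.95, adjusted p = 0.0336), a 1.58-fold higher level, and the bHR minus bIR difference was 0.51 (unadjusted p = 0.00146, adjusted p = 0.622).

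The gene has a near-identical copy, Ttc30b, whose levels were 44.2 ± 4.63, 45.0 ± 4.35 and 45.7 ± 3.17 FPM in bHR, bIR and bLR (bHR minus bLR -0.05, 95% interval -0.22 to 0.11). Ttc30a1 supplied 12.3 ± 1.24% of the reads of the pair in bHR (10.9 to 14.6%), 8.97 ± 2.35% in bIR (7.21 to 13.5%) and 7.92 ± 1.17% in bLR (6.57 to 9.63%). The bHR and bLR rats did not overlap in this share either. The summed level of the pair was 50.4 ± 5.15, 49.4 ± 4.08 and 49.7 ± 3.12 FPM and differed between groups by less than its SD. How the authors' counting divided reads between the copies is not given in the sources used here, and with 118 to 364 reads per library the assignment between copies is uncertain.

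The call of Ttc30a1 was kept in 19 of 29 alternative settings, with adjusted p from 0.0144 to 0.106. Those kept include every fit without a bIR rat, where the bHR minus bLR difference cannot change and only the shared error does. Read totals were lower in bHR (39.2 ± 8.83 M) than in bLR (48.7 ± 8.03 M), and with the read total as a covariate the difference was 0.67 and the adjusted p 0.106. Without the 4 libraries rich in choroid plexus RNA described below the difference was 0.62 and the adjusted p 0.0921. Of those 4 only HR_38 is among the rats compared, so this difference is the one without HR_38. The call was also lost without HR_2 (0.0857), HR_26 (0.0508), HR_34 (0.0783) or HR_38 (0.0741), and without LR_8 (0.0871), LR_16 (0.0839), LR_44 (0.0930) or LR_48 (0.0528), with differences of 0.61 to 0.66 in these fits.

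The remaining IFT-B genes lay mostly on the same side. Of 10, 9 had a higher mean in bHR than in bLR, with a median of 0.08. Ift81, which with Ift74 forms the module that binds tubulin, lay at 36.8 ± 1.77 FPM in bHR (34 to 38.3), 34.1 ± 5.72 in bIR (26.8 to 40.8) and 30.5 ± 1.62 in bLR (28.5 to 33.3). The bHR and bLR rats did not overlap, and the bIR rats spanned both. The difference was 0.27 (95% interval 0.09 to 0.45, unadjusted p = 0.00559, adjusted p = 0.254), and it stayed between 0.25 and 0.31 over the 29 settings. Its partner Ift74 was level at 27.6 ± 2.30, 26.8 ± 2.74 and 26.5 ± 2.22 FPM. The log2 ratio of Ift81 to Ift74 FPM was 0.41 ± 0.104 in bHR (0.296 to 0.556) and 0.20 ± 0.0948 in bLR (0.0537 to 0.324), which overlap.

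Ift80, of the peripheral IFT-B part, lay at 52.8 ± 5.33 FPM in bHR and 47.1 ± 2.62 in bLR (difference 0.16, unadjusted p = 0.035, adjusted p = 0.484). Ift27, the small GTPase that links IFT-B to the BBSome, lay at 16.3 ± 2.38 and 14.6 ± 1.66 FPM. Ift88, which is required for cilia to form at all, lay at 16.8 ± 1.97, 16.8 ± 2.28 and 16.9 ± 0.866 FPM in bHR, bIR and bLR, a bHR minus bLR difference of -0.01 (95% interval -0.20 to 0.18). Of the 3 IFT-A genes Ift43, Ift122 and Ift140, only Ift43 had a higher mean in bHR than in bLR, and the median difference was -0.02.

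Of the 6 BBSome genes, 5 had a higher mean in bHR than in bLR (median 0.08, smallest adjusted p 0.787). Bbs2 lay at 36.6 ± 3.02 in bHR, 32.9 ± 3.02 in bIR and 34.4 ± 1.53 FPM in bLR, with an unadjusted p of 0.0427 against bIR and an adjusted p of 0.853. Bbs4 was the steadiest member, with a within-line SD of 0.07 log2 units and means of 47.1 ± 3.05, 45.5 ± 1.82 and 47.5 ± 1.43 FPM. Bbs10 and Bbs12, chaperonin-like proteins that assemble the BBSome, differed by 0.04 each between bHR and bLR.

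Averaged over members within each rat, both classes stood slightly higher in bHR. The mean log2 value over the 25 motile genes was 3.08 ± 0.162 in bHR (2.88 to 3.31), 2.91 ± 0.251 in bIR (2.54 to 3.2) and 2.93 ± 0.0908 in bLR (2.78 to 3.01), and the bHR and bLR rats overlapped. Over the 23 transport genes it was 4.75 ± 0.0410 in bHR (4.71 to 4.81), 4.67 ± 0.0692 in bIR (4.57 to 4.77) and 4.65 ± 0.0374 in bLR (4.61 to 4.69). Here all bHR rats lay above all bLR rats under the authors' scaling and under trimmed mean scaling. The margin was narrow under the authors' scaling, with HR_26 at 4.706 and LR_48 at 4.685. With each library centred on its median the ranges were 4.70 to 4.83 and 4.63 to 4.72 and overlapped. The class holds the called Ttc30a1, and under the authors' scaling its families differed. The Ttc30 genes averaged 3.84 to 4.21 in bHR and 3.57 to 3.83 in bLR, without overlap. Of this pair only Ttc30a1 was higher in bHR, as Ttc30b differed by -0.05. The Ift means (5.02 to 5.15 and 4.93 to 5.07) and the Bbs means (4.32 to 4.44 and 4.28 to 4.39) overlapped. The separation of the class mean is therefore not shared by its families, and the mean without Ttc30a1 was not taken. The motile mean minus the transport mean was -1.67 ± 0.138, -1.77 ± 0.241 and -1.72 ± 0.103 in bHR, bIR and bLR. These class values include gene length, so only their change between rats is informative, and the 3 groups overlapped in it. No test was made on class means, since the genes were chosen with earlier results known.

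**Figure D4:**
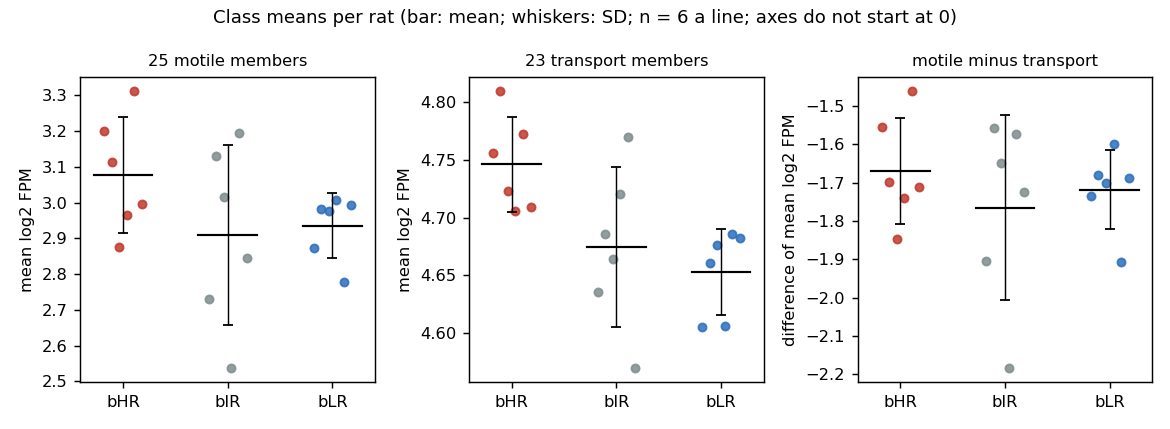
Mean log2 FPM over the 25 motile genes, over the 23 transport genes, and their difference, in each of the 18 rats, with line means and SD (n = 6). The transport means of bHR (4.71 to 4.81) lie narrowly above those of bLR (4.61 to 4.69), with the called Ttc30a1 among the 23 genes averaged. The mean without Ttc30a1 was not taken. The motile means overlap, with IR_248 lowest at 2.54.

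A few rats carried much of the motile spread. In bHR, HR_34 had the highest value of all 18 rats for 11 of the 25 motile genes. In bIR, IR_248 had the lowest value for 10 and IR_149 for 8. For the transport genes the rat most often highest was HR_2, in 8 of 23.

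Markers of other cell types differed in mean between the lines as well. Of 14 astrocyte markers 13 had a higher mean in bHR than in bLR (median 0.15, 0 called, 6 with an unadjusted p under 0.05, against 9.36% of all genes), and their summed level was 8436 to 11225 FPM in bHR and 8337 to 9406 in bLR. Of 12 hippocampal neuron markers 11 had a lower mean in bHR (median -0.20, 0 called, 3 with an unadjusted p under 0.05), with sums of 2895 to 3934 and 3569 to 4033 FPM. Of 10 ependymal markers outside the axoneme 7 were higher in bHR (median 0.11), with sums of 99.9 to 160 and 106 to 138 FPM. No marker of these lists was at 0 reads in any rat. The part of cell content in the small bHR shift of the members was not tested.

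Choroid plexus RNA varied far more between rats than any cilium gene. Ttr, which encodes the transthyretin secreted by that epithelium, ranged from 61.1 to 13406 FPM. It exceeded 11 on the log2 scale in HR_38, IR_213, IR_248 and IR_261. The 15 choroid plexus markers summed to 90.6 to 4661 FPM in bHR, 114 to 14864 in bIR and 106 to 1913 in bLR, with none at 0 reads. Their median difference was 0.02 between bHR and bLR and -1.50 between bHR and bIR, with 0 called. The bIR group held 3 of the 4 rich libraries. Without those 4 libraries 22 of 25 motile and 20 of 23 transport genes had a higher mean in bHR than in bLR, with medians of 0.18 and 0.08. For these differences only HR_38 was left out of the compared rats, and no bLR rat.

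Foxj1 levels were next followed from rat to rat after line means were subtracted. No gene of 20908 passed adjustment for its correlation with Foxj1 over the 18 rats (0%; permutation within lines, Benjamini-Hochberg over all genes), and 1460 had an unadjusted p under 0.05, of which 7 were members. Pearson r was above 0.5 for 8 of 25 motile and 2 of 23 transport genes, against 5.07% of all genes, and the median r was 0.43 for motile, 0.11 for transport and 0.00 for all genes. The highest r belonged to Rsph4a (r = 0.86, permutation p = 0.00077, adjusted p = 0.372, rho = 0.82, permutation p = 0.0007). Without IR_213 and IR_261, the farthest from the median of Foxj1, its r was 0.59.

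Dnai2 had the next smallest p of the members (r = 0.72, permutation p = 0.0021, adjusted p = 0.375, rho = 0.71, permutation p = 0.0027) with r = 0.65 without those rats. Rsph9 and Rsph10b, with r of 0.74 and 0.73, fell to 0.37 each, so their relation rests largely on the 2 rats. Dnah11 had r = 0.72, and 0.57 without them. At the other end were Dnah17 and Ift20 at -0.27 each, Bbs2 at -0.20, Ttc30a1 at -0.17 and Ift88 at -0.15.

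The 2 rats highest in Foxj1 were also the 2 highest in Ttr, and all 15 choroid plexus markers had an r with Foxj1 of 0.56 to 0.78. In the 14 rats without the 4 Ttr-rich libraries 0 of the 15 exceeded 0.5, while the motile genes kept a median r of 0.46 with 10 of 25 above 0.5, against 5.52% of all genes, and the transport genes a median of 0.07 with 3 of 23. There, r was 0.57 for Rsph4a, 0.77 for Dnai2, 0.76 for the inner arm gene Dnah1 and 0.74 for Dnah10. The 59 further axoneme and motile cilium genes listed below fell from a median r of 0.50 (29 above 0.5) to 0.37 (20 above 0.5). The median of the 3 assembly factors fell from 0.43 to -0.08. Leaving out the Ttr-rich libraries also took away much of the spread of the choroid plexus markers themselves. The part of choroid plexus RNA in these correlations was not tested.

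Set against Ttr itself, the parts of the motile axoneme differed in sign. All 7 inner arm heavy chains correlated negatively with Ttr (r from -0.53 for Dnah2 to -0.20 for Dnah7), while Rsph4a reached 0.77, Tekt2 0.65 and Rsph1 0.60. With Ttr 85 genes were called over the 18 rats (0.407%), among them all 14 other choroid plexus markers and 0 members. An r with Ttr above 0.5 was found for 5 of 25 motile and 4 of 23 transport genes, against 6.22% of all genes. This relation was looked at after the values were seen. Without the 4 rich libraries r with Ttr was above 0.5 for 1 of 25 motile genes, against 5.65% of all genes, and the lowest motile r was -0.44.

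**Figure D5:**
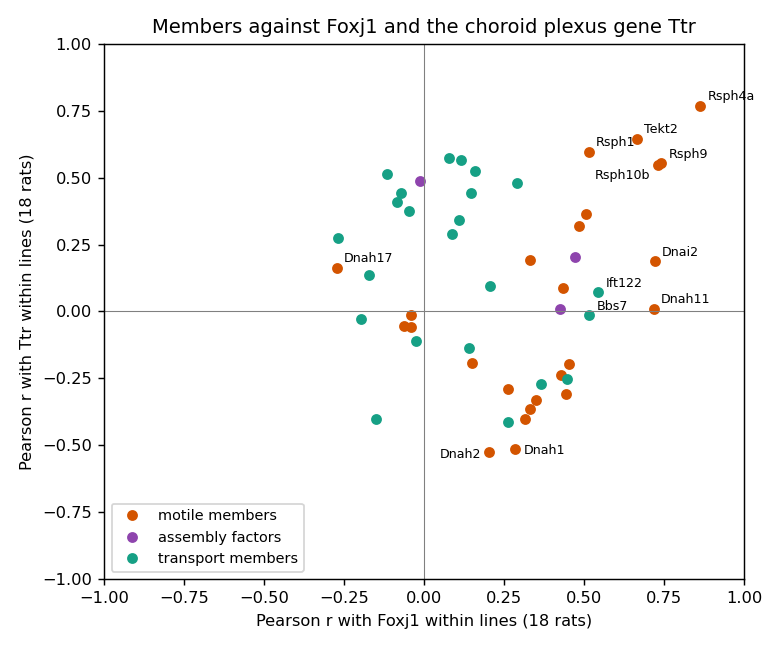
Pearson r of each member with Foxj1 (x axis) and with the choroid plexus gene Ttr (y axis) over the 18 rats after subtracting line means, coloured by class. Motile genes spread to the right, with radial spoke genes and Tekt2 at the upper right (Rsph4a at 0.86 and 0.77) and the inner arm heavy chains below 0 on the y axis; transport genes gather around 0 on the x axis.

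Other genes of the cilium were taken from lists of known components. Of 59 further axoneme and motile cilium genes 45 had a higher mean in bHR than in bLR (median 0.14, range -0.89 to 0.70). Of these 0 were called, against 0.445% of all genes. At an unadjusted p under 0.05 there were 4 (6.78%), against 9.36% of all genes, and 1 did not overlap, against 0.909%. Wdr66 lay at 10.7 ± 0.953 FPM in bHR and 8.31 ± 0.770 in bLR without overlap (difference 0.36, adjusted p = 0.346), and Pifo at 7.07 ± 2.02 and 5.16 ± 0.493 (adjusted p = 0.395).

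Of 22 transition zone genes, which gate the ciliary base, 16 were higher in bHR than in bLR (median 0.06). Again 0 were called, against 0.445% of all genes. Tctn1 lay at 19.1 ± 3.32 and 14.7 ± 1.60 FPM (difference 0.36, adjusted p = 0.263), and B9d2 had the lower mean in bHR, at 18 ± 1.19 and 21.1 ± 2.68 (-0.22, adjusted p = 0.406). Of 37 genes of ciliary motors and signalling 22 were higher (median 0.01, 0 called, against 0.445% of all genes). At an unadjusted p under 0.05 there were 2 (5.41%), against 9.36% of all genes, and 1 did not overlap, against 0.909%. The list holds Rabl5, an older symbol of the IFT-B core gene Ift22, at 44.8 ± 1.77 FPM in bHR (42.5 to 46.8) and 37.7 ± 3.47 in bLR (33.1 to 42.4), without overlap (difference 0.25, adjusted p = 0.393). It also holds Ttc21b, an IFT-A gene, at 11.7 ± 1.83 and 9.76 ± 0.921 FPM (difference 0.26, adjusted p = 0.431). Of 10 regulators of ciliogenesis 7 were higher (median 0.04, 0 called, against 0.445% of all genes). Among them Ccdc67, of the deuterosome on which multiciliated cells build basal bodies, lay at 0.848 ± 0.335 and 0.523 ± 0.171 FPM (adjusted p = 0.536).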

How the data were processed

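Each of the 18 rats gave 1 stranded polyA library. The authors used Subread for alignment to Rnor_6.0 and featureCounts for Ensembl genes, removed genes of low count and deposited log2 FPM values made by voom (limma, R 3.2.2), per the labels and the submitters' processing notes. These deposited log2 values carry an offset of 0.5 reads. Taking the lowest value of each column as 0 reads, reads were recovered to within 2.67e-08 of whole numbers. Totals ranged from 31.1 to 66.6 M, and a gene at 1 FPM rests on about that many reads. Replicates are separate rats, grouped by title.

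Line means were fitted with limma 3.58.1 (R 4.3.3, eBayes with trend) on all 18 rats, with Benjamini-Hochberg adjustment over 20909 genes and calls at an adjusted p under 0.05, two-sided. The fit was tested on simulated data. Intervals are 95% confidence intervals of the difference between line means, from the same fit, and do not describe the range of single rats. Correlations with Foxj1 used residuals from line means and two-sided permutation within lines (100000 resamples, 20000 for Spearman's rho), adjusted over all genes rather than over the members as first planned. Promoters came from RefSeq (GRCr8) and were matched by symbol or synonym. Members and lists were chosen with earlier results of these data known. Genes named are Foxj1, the called member, in each family the 3 of smallest p between bHR and bLR and the one with most reads, in each class the 3 of smallest p against bIR and the extremes of within-line SD, the 5 highest and lowest correlations with Foxj1, and up to 3 genes per list. The others, among them Dnaaf3's neighbours, Dnah1, Dnah2, Dnah6, Dnah7, Dnah17, Tekt2, Ift88, Ift74, Ift43, Ift122, Ift140, Bbs10 and Bbs12, complete a complex or were chosen after their values were seen. Alternatives changed the low value filter, scaling, offset, variance model, depth or choroid plexus terms, or left out libraries. A gene of the further cilium lists is not reported here.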

Additional observations from a re-analysis of the deposited data

Results flagged for a closer look

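Of 99 sets of 6 rats (33 genes in 3 groups), 4 held a rat far from the other 5 of its group, where chance gives about 1 in 20. Of these 4 values 3 came from LR_48. Its level of Ift20, an IFT-B gene that also serves at the Golgi, was 72.5 FPM, and the other 5 bLR rats lay between 47.1 and 53.0. Its level of the BBSome gene Bbs5 was 28.1 FPM, with the others between 17.0 and 20.2. Its level of Bbs7, another BBSome gene, was low at 19.9 FPM, with the others between 23 and 24.6. The fourth was the outer arm gene Dnai2 in HR_34, at 4.35 FPM against 2.42 to 2.90 in the other bHR rats. The same rat had the highest value of all 18 rats for 11 of the 25 motile genes.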

How the results depend on the processing

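No paired analysis was possible because the replicate numbers are the rats' own numbers and no number is shared between lines, so no replicate block could be fitted. The count of members called between bHR and bLR, 1 as reported, was 0 with the read total as a covariate and 0 without the 4 Ttr-rich libraries. Of those 4 only HR_38 belongs to these lines. The count was 2 with only the 12 rats of these lines (Dnaaf3 joined) and 0 to 1 when a rat was left out. Over all alternatives the bHR minus bLR difference changed sign in at least 1 setting for 18 of the 52 members. When a rat was left out, the ranges that crossed 0 among the members tabulated singly were -0.0604 to 0.0980 for Dnah12, -0.0383 to 0.0124 for Bbs4 and -0.00180 to 0.0808 for Ift46; the cause was not tested. Without the Ttr-rich libraries the transport median was 0.111 for bHR minus bIR and 0.0664 for bLR minus bIR. The share of promoters with a motif match was 12.2% of members and 1.83% of all promoters for the full box, 2.44% of all promoters with either spacing, and 36.6% and 12.2% for the single arm. Counts of members called against bIR were 0 in every setting run. The count over all genes between bHR and bLR, 93 as reported, ranged from 41 to 138. With 6 rats a line, the 95% interval of the bHR minus bLR difference spanned 0 for most members.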
